A study of Homo sapiens with 4 samples.

Results

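The effect of GSK343 shared by 2 human cancer cell lines was described as the mean, over HepG2 and A549, of log2 intensity with GSK343 minus log2 intensity in the control of the same line. Its members were the probes with a value above 0 on all 4 arrays of the series, 31607 of 31741 probes. The 15804 probes at or above the median of the 4-array mean of log2 intensity, called brighter probes here, were described first. The probe just inside that median had a geometric mean intensity of 475.4, and the probe just below it had 475.2. Of the brighter probes, 13433 named 1 gene, and they stood for 10802 genes, each with the mean over its brighter probes as its value. The groups were HepG2 cells, a liver cancer line, exposed to 10 μM GSK343 for 6 h, HepG2 control cells at the same time, A549 cells, a lung cancer line, exposed to the same dose for the same time, and A549 control cells. The HepG2 cells were kept in medium with fetal bovine serum, and what the control cells received in place of the compound is not given for the arrays in the sources used here. Total RNA of each group was hybridized to 1 Human OneArray Plus array, so the effect had 1 pair of arrays per line and an n of 2 lines. The SD printed after a mean is the spread between the 2 lines.

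GSK343 inhibits EZH2, the catalytic subunit of the Polycomb complex PRC2, which methylates histone H3 and keeps developmental genes silent. When sterols in the endoplasmic reticulum are low, SCAP carries the SREBF2 protein to the Golgi apparatus, from where it turns on the enzymes of the mevalonate and cholesterol pathway, and INSIG1 holds it back. In the integrated stress response, kinases slow protein synthesis and favour the translation of ATF4, which turns on genes such as DDIT3 and TRIB3, and in a separate pathway the coactivators YAP and TAZ drive genes such as CTGF and CYR61.

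The median intensity was 449.8 on the HepG2 GSK343 array and 475.8 on the HepG2 control array, and it was 498.8 on the A549 GSK343 array and 460.1 on the A549 control array. The lines thus differed in whether the array with GSK343 was the dimmer or the brighter of its pair. Setting all array medians equal moved the median difference over brighter probes to 0.08 log2 units in HepG2, against 0.01 as deposited, and to -0.12 log2 units in A549, against -0.01 as deposited. All 14 liver markers, such as ALB and AFP, were brighter on the HepG2 control array than on the A549 control array, and all 12 markers of A549 cells had the opposite order. One of these 12, SFTPC, was far below the median on both control arrays, at 30.3 in HepG2 and 31.3 in A549. Its order therefore says nothing about the lines. Of 10 markers of other cell types, between 5 and 8 were below the median on each array. Of the 134 probes left out for a value of 0 or less, 13 were at or above the array median on the other 3 arrays, and 11 of these 13 had their value of 0 or less on the HepG2 GSK343 array.

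No probe passed the test over both lines. limma, with cell line as a block and Benjamini-Hochberg adjustment over all 31607 probes, gave 0 probes an adjusted p under 0.05, which is 0% of the brighter probes in either direction, and the smallest adjusted p was 0.358. At an unadjusted p under 0.05 there were 167 brighter probes that were higher with GSK343 (1.06%) and 157 that were lower (0.993%), together 2.05% of the brighter probes. Over all 31607 probes, 513 were higher (1.62%) and 774 lower (2.45%) at that level, together 4.07%. The model left 1 residual degree of freedom, which held the disagreement between HepG2 and A549 at a probe. Its error combined this with a prior of 5.89 degrees of freedom, drawn from all probes and following brightness. A p-value was thus not set by the disagreement of the lines alone. Nothing in the labels says that the arrays came from separate cultures, so these p-values do not measure the spread between cultures. Every difference below is therefore given as a value in each line. In these bulk RNA samples, fewer cells of a state and less RNA per cell cannot be told apart.

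The lines had the same direction at 5516 of the 15804 brighter probes (34.9%), against 41.2% over all probes. Of them, 2787 were higher with GSK343 in both lines (17.6%) and 2729 were lower in both (17.3%). Opposite directions were thus more frequent, and r between the line differences was -0.276 across the brighter probes, which share arrays and are not independent replicates. The share with the same direction was 49.4% among the dimmest of 4 equal groups of all probes and 31.4% among the brightest. Among probes that differed by at least 1 log2 unit in both lines, 22 of 39 had the same direction, 13 higher with GSK343 (0.0823% of brighter probes) and 9 lower (0.0569%). At 0.5 log2 units these counts were 81 higher (0.513%) and 67 lower (0.424%), and at 1.5 log2 units no brighter probe was left in either direction. Over genes, 1916 of 10802 were higher in both lines (17.7%) and 1948 were lower in both (18%), and 49 (0.454%) and 39 (0.361%) differed by at least 0.5 log2 units in both. The median gene difference was 0.00 log2 units for the mean of the lines, and counts of the gene lists below are to be read against these shares.

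**Figure D1:**
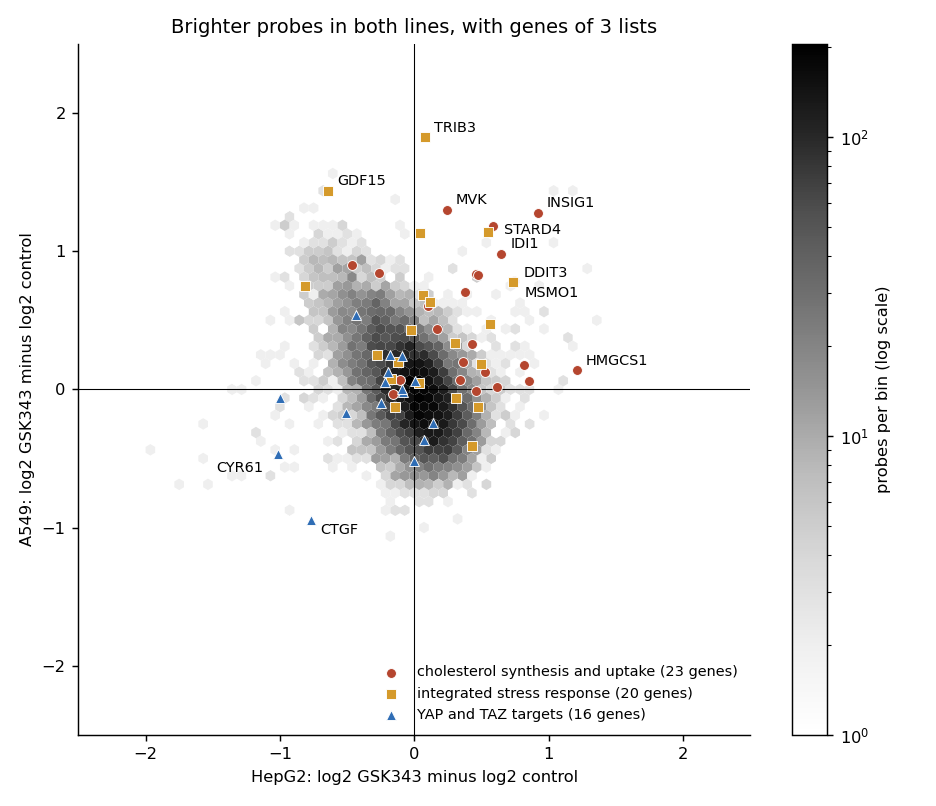
Difference with GSK343 in HepG2 (x axis) and in A549 (y axis), in log2 units, for brighter probes, shaded by the number of probes per bin on a log scale, with the gene values of 3 lists drawn on top; 12 probes beyond 2.5 log2 units in a line are outside the frame. The grey cloud leans from upper left to lower right, while most genes of cholesterol synthesis and uptake lie at the upper right, where both lines were higher with GSK343.

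Genes of the list of cholesterol synthesis and uptake, most of them enzymes of synthesis, were higher with GSK343 in both lines more often than those of any other list examined. Of 29 listed genes, 23 had a brighter probe, and 18 of these were higher in both lines (78.3%, against 17.7% of all genes), 1 was lower in both and 4 had opposite directions. Their median difference was 0.46 log2 units in HepG2 and 0.44 in A549, and the median of the mean over lines was 0.38, against 0.00 for all genes. None passed limma after adjustment, and 9 genes had a brighter probe at an unadjusted p under 0.05, all of them higher, where 1.13% of all genes had such a probe in that direction. With all single-gene probes counted, dim ones included, 19 of 25 genes were higher in both lines (against 21.5% of all genes so counted). With array medians set equal, 15 of 23 were (against 14.8%). Of the 18 genes, 15 were at or above the array median on all 4 arrays.

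The enzymes made up most of this list, and 16 of 18 were higher in both lines. Of 4 regulators, 1 was higher in both lines and 1 lower. Uptake and transport had 1 gene with a brighter probe, STARD4, so the values say little about uptake. IDI1, which isomerizes the isoprenoid building block made from mevalonate, had 2 brighter probes. The first IDI1 probe had an intensity of 29173 with GSK343 and 19935 in the control in HepG2, and of 12986 with GSK343 and 6167 in the control in A549. The second IDI1 probe had 27760 with GSK343 and 16560 in the control in HepG2, and 13405 with GSK343 and 7238 in the control in A549. Both IDI1 probes were thus higher with GSK343 in both lines, and the gene mean was 0.81 ± 0.24 log2 units (SD, n = 2 lines). MSMO1, which removes a methyl group from sterol intermediates, had 54740 with GSK343 and 28161 in the control in HepG2, and 12091 with GSK343 and 7265 in the control in A549 with the brighter of its 2 probes. The other MSMO1 probe was also higher with GSK343 in both lines, by 0.52 log2 units in HepG2 and 0.84 in A549, and the mean over the gene was 0.76 ± 0.03 log2 units. As gene means, the 2 line values of MSMO1 lay closest together among the enzymes of this list. Its probes differed in which line was larger, as the brighter one had 0.96 log2 units in HepG2 and 0.73 in A549.

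SQLE makes the first oxygenated intermediate from squalene and is a rate-limiting enzyme of the later pathway. SQLE had an intensity of 37166 with GSK343 and 27066 in the control in HepG2, and of 21489 with GSK343 and 12042 in the control in A549. LSS, which closes the sterol rings, had 37414 with GSK343 and 26938 in the control in HepG2, and 10462 with GSK343 and 5906 in the control in A549. The 2 genes had nearly the same differences, 0.46 log2 units for SQLE and 0.47 for LSS in HepG2, and 0.84 for SQLE and 0.82 for LSS in A549. A dim second LSS probe had 0.01 log2 units in HepG2 and -0.18 in A549, so it did not share these values. Several enzymes differed in size between the lines while keeping the direction. HMGCS1, which makes HMG-CoA, was higher by 1.21 log2 units in HepG2 and by 0.14 in A549, and DHCR7, the last enzyme on one branch to cholesterol, was higher by 0.85 in HepG2 and 0.06 in A549. MVK, the kinase that phosphorylates mevalonate, had the opposite order of sizes, with 0.24 log2 units in HepG2 and 1.30 in A549. The A549 values of HMGCS1 and DHCR7 were below the spread between probes of a gene in A549, 0.37 log2 units. Their direction in A549 is therefore uncertain. FDPS, which makes farnesyl diphosphate, had -0.26 log2 units in HepG2 and 0.84 in A549 and was one of the 2 enzymes that did not share a direction, next to CYP51A1 with 0.46 in HepG2 and -0.01 in A549.

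The other members of the list carry or regulate sterols. STARD4, a carrier of cholesterol within the cell, had an intensity of 1433 with GSK343 and 955.8 in the control in HepG2, and of 326.7 with GSK343 and 144.2 in the control in A549. INSIG1, the brake on SREBF2 processing, had 136.5 with GSK343 and 72.2 in the control in HepG2, and 31939 with GSK343 and 13156 in the control in A549. Both genes were higher with GSK343 in both lines, but STARD4 was below the array median in A549 and INSIG1 below it in HepG2, so each rests on a dim pair in 1 line. A second, dim INSIG1 probe had -0.14 log2 units in HepG2 and 2.14 in A549. SCAP, the carrier of SREBF2, had -0.16 log2 units in HepG2 and -0.03 in A549 and was the single gene lower in both lines. SREBF2 itself had -0.47 log2 units in HepG2 and 0.90 in A549, so the shared direction of the enzymes did not extend to the factor's own probe.

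**Figure D2:**
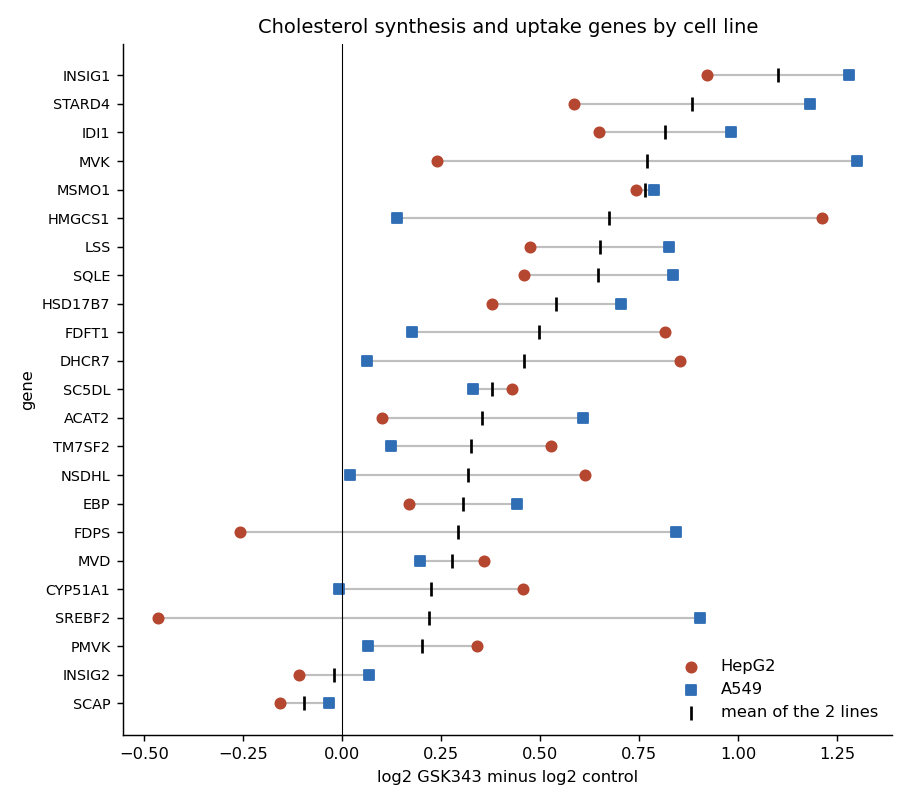
Difference with GSK343 in log2 units (x axis) for the 23 genes of cholesterol synthesis and uptake with a brighter probe, ordered by the mean over lines; circles are HepG2, squares A549 and the tick is their mean. All but 5 genes have both points to the right of 0, and FDPS and SREBF2 have their points furthest apart on either side of it.

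Since these genes share a known regulator, their promoters were searched for the 7 letters CACCCCA, a core of the sterol regulatory element, on both strands of the 250 bases before the RefSeq start site of each gene (GRCh38.p14, the first start listed). Of the 23 genes, 20 matched a RefSeq promoter by current or older symbol, and 4 of these held the core (20%), against 6.81% of all 27305 promoters of the table. The next highest shares were in lists described below. They were 2 of 12 interferon-stimulated genes (16.7%), 2 of 12 developmental factors (16.7%) and 2 of 13 NF-kB genes (15.4%). The lowest was 0%, as for DNA replication. IDI1, MSMO1, LSS, HMGCS1, STARD4 and INSIG1 did not hold the core in this window. The 4 were MVK, MVD, EBP and SREBF2, of which the first 3 were higher with GSK343 in both lines. MVD, the decarboxylase that makes isopentenyl diphosphate, had 0.36 log2 units in HepG2 and 0.20 in A549. EBP, an isomerase of late sterol synthesis, had 0.17 log2 units in HepG2 and 0.44 in A549. The MVD promoter, chr16:88663092-88663341 on the minus strand, and the EBP promoter, chrX:48521558-48521807 on the plus strand, are shown 5′ to 3′ with the core in capitals, because they are 2 of the promoters in which these letters stand before a gene that was higher in both lines.
MVD: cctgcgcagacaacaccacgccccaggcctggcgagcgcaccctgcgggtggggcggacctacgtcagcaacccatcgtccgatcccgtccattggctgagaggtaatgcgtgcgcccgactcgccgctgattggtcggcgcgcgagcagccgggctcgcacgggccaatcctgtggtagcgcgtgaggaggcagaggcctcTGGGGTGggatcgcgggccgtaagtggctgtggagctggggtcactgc
EBP: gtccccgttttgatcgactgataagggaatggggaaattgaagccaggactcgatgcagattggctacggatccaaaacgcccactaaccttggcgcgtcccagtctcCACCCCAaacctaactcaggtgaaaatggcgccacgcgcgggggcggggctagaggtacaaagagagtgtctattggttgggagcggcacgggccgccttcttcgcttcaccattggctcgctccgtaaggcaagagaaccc
In MVD the core is read on the opposite strand and so appears as its reverse complement. The MVK match lies in a stretch of 211 bases that the upstream windows of MVK and of its neighbour MMAB have in common, as the 2 genes start 290 bases apart and run in opposite directions. MMAB, which makes the active form of vitamin B12 in mitochondria, was chosen after its values were seen. Its first probe had 0.43 log2 units in HepG2 and 0.83 in A549, and its second probe had 0.64 in HepG2 and 0.22 in A549. These matches describe letters in a window and are no measure of binding.

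Genes of fatty acid and triglyceride synthesis were higher in both lines less evenly. Of 22 genes with a brighter probe, 9 were higher in both lines (40.9%), 3 were lower in both and the median of the mean was 0.15 log2 units. The median was 0.21 log2 units in HepG2 and 0.04 in A549, where 13 of the 22 genes were higher. With array medians set equal, 7 were higher in both lines (31.8%, against 14.8% of all genes). The medians were then 0.28 log2 units in HepG2 and -0.08 in A549. LPIN1, a phosphatidate phosphatase of glycerolipid synthesis, had the largest shared difference of this list. One LPIN1 probe had an intensity of 6171 with GSK343 and 2507 in the control in HepG2, and of 6413 with GSK343 and 3534 in the control in A549. The other LPIN1 probe had 5032 with GSK343 and 2054 in the control in HepG2, and 6136 with GSK343 and 3414 in the control in A549. Both probes gave nearly the same differences, and LPIN1 averaged 1.07 ± 0.31 log2 units over the lines. SCD, the desaturase that makes oleate, was higher by 0.45 log2 units in HepG2 and 0.36 in A549, and FADS1, a desaturase of polyunsaturated fatty acids, by 0.43 in HepG2 and 0.22 in A549. ELOVL6, which lengthens fatty acids, was higher by 0.29 log2 units in HepG2 and 0.18 in A549. The 3 genes of desaturation and elongation that shared a direction thus differed by less than LPIN1. The fatty acid synthase FASN had 0.60 log2 units in HepG2 and -0.10 in A549, and ACSS2, which makes acetyl-CoA from acetate, had probes at 0.38 and -0.18 in A549 against 1.15 and 1.14 in HepG2. DGAT2, which completes triglycerides, was lower in both lines, with -0.38 log2 units in HepG2 and -0.23 in A549.

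**Figure D3:**
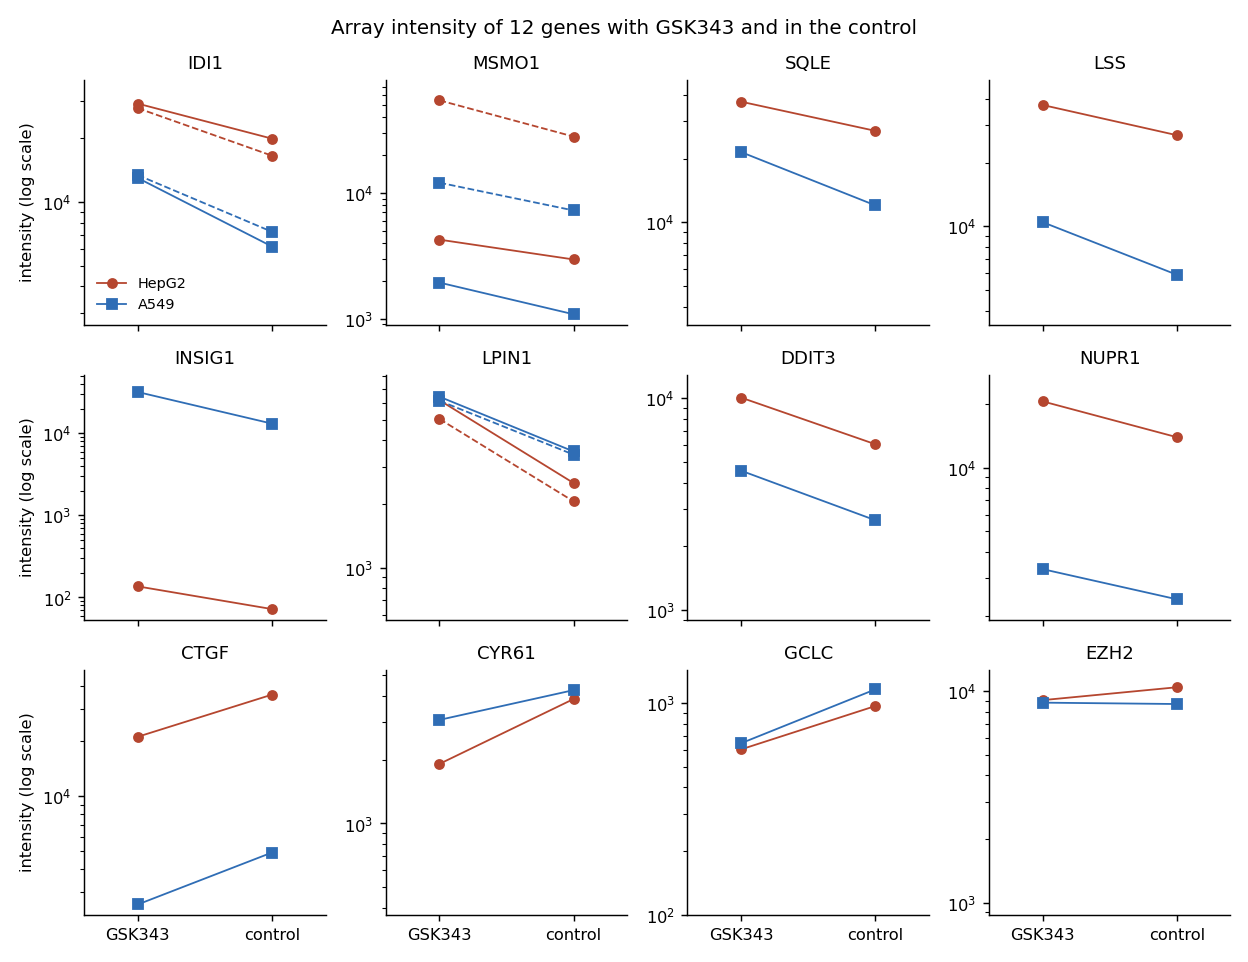
Array intensity on a log scale (y axis) with GSK343 (left) and in the control (right) for 12 genes; circles are HepG2 and squares A549, each point is 1 array, and a dashed line is a second brighter probe. IDI1, MSMO1, SQLE, LSS, INSIG1, LPIN1, DDIT3 and NUPR1 are higher with GSK343 in both lines, CTGF, CYR61 and GCLC are lower in both, and the lines of EZH2 are nearly flat.

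Of the integrated stress response, 10 of 20 genes with a brighter probe were higher with GSK343 in both lines (50%), 1 was lower in both, and the median was 0.07 log2 units in HepG2 and 0.38 in A549. Among the transcription factors 5 of 7 were higher in both lines. DDIT3, the factor CHOP that promotes cell death under prolonged stress, had an intensity of 10084 with GSK343 and 6075 in the control in HepG2, and of 4555 with GSK343 and 2658 in the control in A549. NUPR1, a small nuclear protein induced by stress, had 20564 with GSK343 and 13928 in the control in HepG2, and 3316 with GSK343 and 2390 in the control in A549. Both were higher with GSK343 to a like extent in the lines, with means of 0.75 ± 0.03 log2 units for DDIT3 and 0.52 ± 0.06 for NUPR1. KLHL24, an adaptor of a ubiquitin ligase, was higher in both lines with all 3 of its probes, and its brighter probe had 0.55 log2 units in HepG2 and 1.14 in A549. STC2, a secreted glycoprotein, had 0.30 log2 units in HepG2 and 0.34 in A549, although its dim probe had -0.55 in HepG2 and 0.89 in A549. SESN2, a stress-induced inhibitor of mTORC1, was higher by 0.49 log2 units in HepG2 and 0.18 in A549.

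Other members of this response were carried by A549. TRIB3, a pseudokinase that feeds back on ATF4, had 0.43 log2 units in HepG2 and 1.55 in A549 with one brighter probe, and -0.27 in HepG2 and 2.10 in A549 with the other. DDIT4, an inhibitor of mTORC1, had 0.04 log2 units in HepG2 and 1.13 in A549. The 2 ATF4 probes disagreed in both lines, with -0.78 log2 units in HepG2 and 0.36 in A549 for the dimmer one and 0.42 in HepG2 and -0.21 in A549 for the brighter one. Of the 4 kinases that start the response, none was higher in both lines. Related lists, with genes of the same factors or the same compartment, did not share the direction to that degree. Of 33 genes for amino acid synthesis, transport and tRNA charging, 5 were higher in both lines (15.2%) and 3 lower, and of 21 endoplasmic reticulum chaperones and degradation genes 4 were higher (19%) and 1 lower. Of these chaperone genes, PDIA4, a disulfide isomerase, had 0.24 log2 units in HepG2 and 0.26 in A549. The core TTGCATC of the C/EBP-ATF element, searched in the same windows on both strands, was in 0 of 18 promoters of the integrated stress response and in 2.07% of all promoters. It was in 4 of 23 promoters of the amino acid list (17.4%) and in 1 of 20 of the endoplasmic reticulum list (5%).

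Autophagy and lysosome genes leaned higher in HepG2, with small values. Their median was 0.11 log2 units in HepG2 and 0.00 in A549, where 18 of 35 genes were higher. Of 35 autophagy and lysosome genes with a brighter probe, 13 were higher in both lines (37.1%) and 5 lower, and among the 14 autophagy genes alone 7 were higher and 0 lower. With array medians set equal, 7 of the 35 were higher in both lines and 2 lower, against 14.8% and 17.7% of all genes. The list median was then 0.18 log2 units in HepG2 and -0.11 in A549. SQSTM1, a receptor that brings cargo to autophagosomes, had an intensity of 10394 with GSK343 and 8899 in the control in HepG2, and of 27114 with GSK343 and 16594 in the control in A549. WIPI1, which marks forming autophagosomes, was higher by 0.28 log2 units in HepG2 and 0.29 in A549. FNIP1, a partner of folliculin in nutrient sensing, was higher by 0.19 log2 units in HepG2 and 0.49 in A549. The spread among probes for 1 gene was 0.27 log2 units in HepG2, 0.37 in A549 and 0.16 for the mean of the lines (SD of the difference between 2 brighter probes divided by the square root of 2, over 2374 genes). In HepG2 the differences of SQSTM1, WIPI1 and FNIP1 were of that order. In A549, SQSTM1 at 0.71 and FNIP1 at 0.49 were above the spread. Their means over the lines, 0.47 and 0.34, were also above it.

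**Figure D4:**
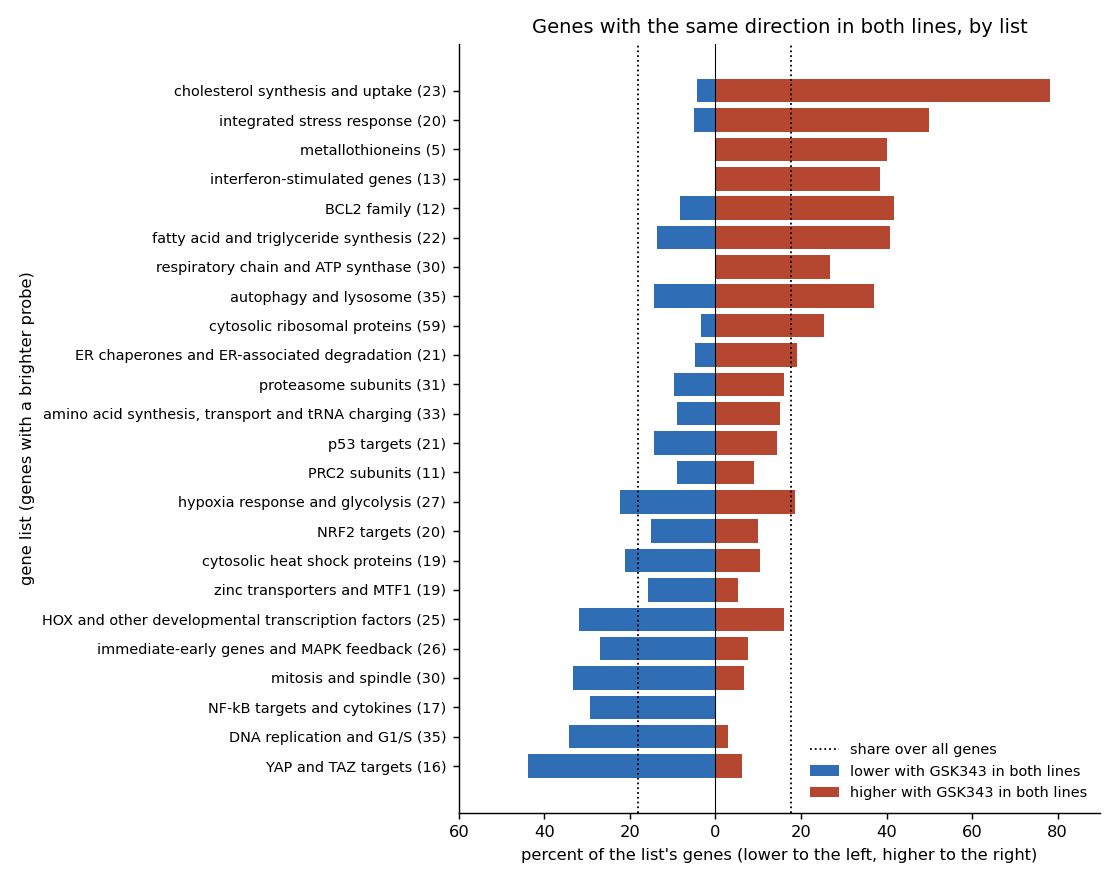
Percent of the genes of each list that were higher with GSK343 in both lines (to the right of 0) and lower in both lines (to the left), with the number of genes with a brighter probe in parentheses; dotted lines are the shares over all 10802 genes, 17.7% higher and 18% lower. The list of cholesterol synthesis and uptake has the longest bar to the right, at 78.3%. The list of YAP and TAZ targets, which includes the pathway's factors, has the longest to the left, at 43.8%.

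On the lower side, the lists with the highest shares were those of YAP and TAZ, DNA replication, mitosis, developmental factors and NF-kB. The markers of A549 cells, used to check the labels, were lower in both lines in 5 of 11 cases (45.5%), of which 2 were at or above the array median on all 4 arrays. Of 16 YAP and TAZ genes with a brighter probe, 7 were lower in both lines (43.8%, against 18% of all genes) and 1 was higher, and the median of the mean was -0.07 log2 units. The median was -0.19 log2 units in HepG2 and -0.04 in A549, where 7 of the 16 genes were higher. The 10 targets among them had medians of -0.33 in HepG2 and 0.02 in A549, and the other 6 genes were factors of the pathway. CTGF, a matricellular protein, had an intensity of 21208 with GSK343 and 36063 in the control in HepG2, and of 2562 with GSK343 and 4929 in the control in A549. CYR61, its relative, had 1912 with GSK343 and 3872 in the control in HepG2, and 3086 with GSK343 and 4265 in the control in A549. Both were lower with GSK343 in both lines, with means of -0.85 ± 0.13 log2 units for CTGF and -0.74 ± 0.39 for CYR61. The limma p was 0.00541 for CTGF and 0.0168 for CYR61 before adjustment, and 0.608 and 0.904 after it. THBS1, a matrix protein of the same list, had an intensity of 3339 with GSK343 and 6669 in the control in HepG2, and of 2876 with GSK343 and 3008 in the control in A549, so its difference was nearly all in HepG2. AJUBA, a scaffold of the pathway, had -0.78 log2 units in HepG2 and 0.21 in A549 with one probe and -0.25 in HepG2 and -0.55 in A549 with the other. After quantile normalization 5 of the 16 genes were lower in both lines, against 16.8% of all genes.

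Of 17 NF-kB targets and cytokines, 5 were lower in both lines (29.4%) and 0 higher. In 3 of the 5, BIRC3, CCL2 and RELB, the HepG2 pair was below the array medians, and 2 of the 5 were at or above the median on all 4 arrays. TNFAIP3, a deubiquitinase that limits NF-kB, had an intensity of 10851 with GSK343 and 13303 in the control in HepG2, and of 1920 with GSK343 and 2829 in the control in A549. IRF1, an interferon regulatory factor, had -0.26 log2 units in HepG2 and -0.44 in A549 with its brighter probe, and 0.03 in HepG2 and -0.65 in A549 with a dim one. Among immediate-early genes, 7 of 26 were lower in both lines (26.9%) and 2 higher. MYC, the growth-promoting factor, had -0.35 log2 units in HepG2 and -0.25 in A549, and JUN, a subunit of AP-1, had -0.25 in HepG2 and -0.24 in A549. EGR1, an early zinc finger factor, had -0.00 log2 units in HepG2 and -0.95 in A549, so its shared sign is one of size 0 in HepG2. Genes of DNA replication and mitosis were lower in both lines in 12 of 35 (34.3%) and 10 of 30 cases (33.3%), and higher in 1 and 2. CDC25A, the phosphatase that opens S phase, had -0.21 log2 units in HepG2 and -0.40 in A549 with its brighter probe. A dim CDC25A probe had -0.54 in HepG2 and 0.30 in A549. TYMS, which makes thymidylate, had -0.19 in both lines. BUB1B, a checkpoint kinase of the spindle, had -0.24 log2 units in HepG2 and -0.17 in A549. Within each line, these differences of brighter probes were about as large as the spread between probes of a gene or smaller. After quantile normalization, 5 of the 30 mitosis genes were lower in both lines.

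Outside these groups, GCLC, the catalytic subunit of the enzyme that starts glutathione synthesis, had an intensity of 603.9 with GSK343 and 967.3 in the control in HepG2, and of 645.5 with GSK343 and 1159 in the control in A549. GCLC was lower with GSK343 in both lines, at -0.76 ± 0.12 log2 units. Of its list of 20 NRF2 targets and factors, 3 were lower in both lines (15%) and 2 were higher (10%). Besides GCLC, the lower ones were the list's 2 factors, NFE2L2 and KEAP1, so no other target was lower in both lines. Of 21 p53 targets, 3 were higher in both lines and 3 lower. Of 27 hypoxia and glycolysis genes, 5 were higher in both lines and 6 lower. Ribosomal protein genes were higher in both lines in 15 of 59 cases (25.4%) and lower in 2, and respiratory chain genes were higher in 8 of 30 (26.7%) and lower in 0, but the median of both lists was above 0 in HepG2 and below 0 in A549. With array medians set equal, 7 of the 59 ribosomal genes (11.9%) and 2 of the 30 respiratory genes (6.67%) were higher in both lines, below the 14.8% of all genes. Interferon-stimulated genes were higher in both lines in 5 of 13 cases and lower in 0, and BCL2 family genes higher in 5 of 12 and lower in 1. Cytosolic heat shock genes were higher in 2 of 19 and lower in 4, zinc transporters higher in 1 of 19 and lower in 3, and proteasome subunits higher in 5 of 31 and lower in 3.

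The target of the compound and its partners had small differences. EZH2 had an intensity of 9059 with GSK343 and 10421 in the control in HepG2, and of 8816 with GSK343 and 8685 in the control in A549, which is -0.20 log2 units in HepG2 and 0.02 in A549. SUZ12, the scaffold subunit of PRC2, had 0.18 log2 units in HepG2 and -0.25 in A549. EED, which binds the methylated histone, had 0.01 log2 units in HepG2 and -0.42 in A549 with its brighter probe, and 0.64 in HepG2 and 0.16 in A549 with a dim one. EZH1, the other catalytic subunit, had 0.08 log2 units in HepG2 and 0.05 in A549 and was the single gene of 11 PRC2 subunits that was higher in both lines, and PHF19 was the single one lower in both when its probes were averaged. The first PHF19 probe had -0.03 log2 units in HepG2 and -0.51 in A549, and the second had -0.28 in HepG2 and 0.13 in A549. Of 25 HOX and other developmental factors with a brighter probe, 4 were higher in both lines (16%) and 8 were lower (32%). Only 4 of these 8 were at or above the array median on all 4 arrays. HOXB7, a factor of body patterning, had an intensity of 74.4 with GSK343 and 105.6 in the control in HepG2, far below the array medians there, and of 6585 with GSK343 and 9115 in the control in A549. NKX2-5, a factor of heart development, had -1.03 log2 units in HepG2 and -0.45 in A549. The share of this list that was higher in both lines lay next to the 17.7% of all genes. With all single-gene probes or the brightest probe of each gene, the median of this list was above 0, at 0.01 and 0.02 log2 units, against -0.05 with the brighter probes as deposited, -0.07 with array medians set equal, -0.06 after quantile normalization and -0.03 with an offset of 50.

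Metallothionein genes, which encode small proteins that bind zinc and copper, were mostly a matter of HepG2. Of 5 genes with a brighter probe of their own, 2 were higher in both lines. MT1X had an intensity of 134258 with GSK343 and 39038 in the control in HepG2, and of 22135 with GSK343 and 19504 in the control in A549. MT1A had 6852 with GSK343 and 2140 in the control in HepG2, and 2744 with GSK343 and 2327 in the control in A549. Both were higher with GSK343 in both lines, but by 1.78 and 1.68 log2 units in HepG2 against 0.18 and 0.24 in A549, where the difference was smaller than the spread between probes of a gene. A probe shared by 8 metallothionein genes and pseudogenes had 1.87 log2 units in HepG2 and 0.20 in A549. MT2A, the single MT2 gene, had 0.81 log2 units in HepG2 and -0.13 in A549, and MT1E had 1.26 in HepG2 and -0.31 in A549. The study examined these genes in HepG2, so their direction on the HepG2 arrays is no independent evidence.

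Ranked by the smaller of the 2 line differences, the probes at the top of either end included several for genes best known from other tissues. The 15 higher probes were led by MYOCD, a coactivator of smooth muscle and heart genes, which had an intensity of 1876 with GSK343 and 726.8 in the control in HepG2, and of 782.4 with GSK343 and 252.3 in the control in A549. MMP25, a membrane-anchored metalloproteinase, had 1991 with GSK343 and 504.1 in the control in HepG2, and 730.6 with GSK343 and 291.2 in the control in A549. FAM65B, CSN1S1, a casein of milk, NEUROD4, a factor of neuron formation, and PIWIL1, a germ line protein that binds small RNAs, followed with smaller differences between 1.06 and 1.19 log2 units. At the other end, NNAT, an imprinted membrane protein of the brain, had 550.1 with GSK343 and 1540 in the control in HepG2, and 333.5 with GSK343 and 1261 in the control in A549. CCR6, a chemokine receptor of lymphocytes, had 716.6 with GSK343 and 1839 in the control in HepG2, and 244.5 with GSK343 and 621.4 in the control in A549. Most of these probes were dim, with a geometric mean intensity under 1024 for 9 of the 15 higher and 12 of the 15 lower probes. Their limma p was between 0.358 and 0.428 after adjustment for the higher probes and between 0.358 and 0.552 for the lower probes.

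Other probes of the same genes seldom showed the same values. Of the 30 genes, 15 had 21 other single-gene probes, and 4 of these 21 had the direction of the leading probe in both lines, none of them a brighter probe. The second RAB15 probe above the median, for a small GTPase of the endosome, had an intensity of 9704 with GSK343 and 10512 in the control in HepG2 and of 25768 with GSK343 and 22957 in the control in A549, where the leading RAB15 probe was higher by 1.02 log2 units in HepG2 and 1.08 in A549. The other brighter probes of LRTOMT had 0.10 and -0.19 log2 units in HepG2, against 1.96 for the leading probe, and -4.78 and 0.33 in A549, against 0.93. The exceptions were PIWIL1, with 0.84 log2 units in both lines for its dim probe, and CCR6, MAPT-IT1 and SLC25A48, each with 1 dim probe that was lower in both lines. Which transcripts each probe matches was not analysed here.

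**Figure D5:**
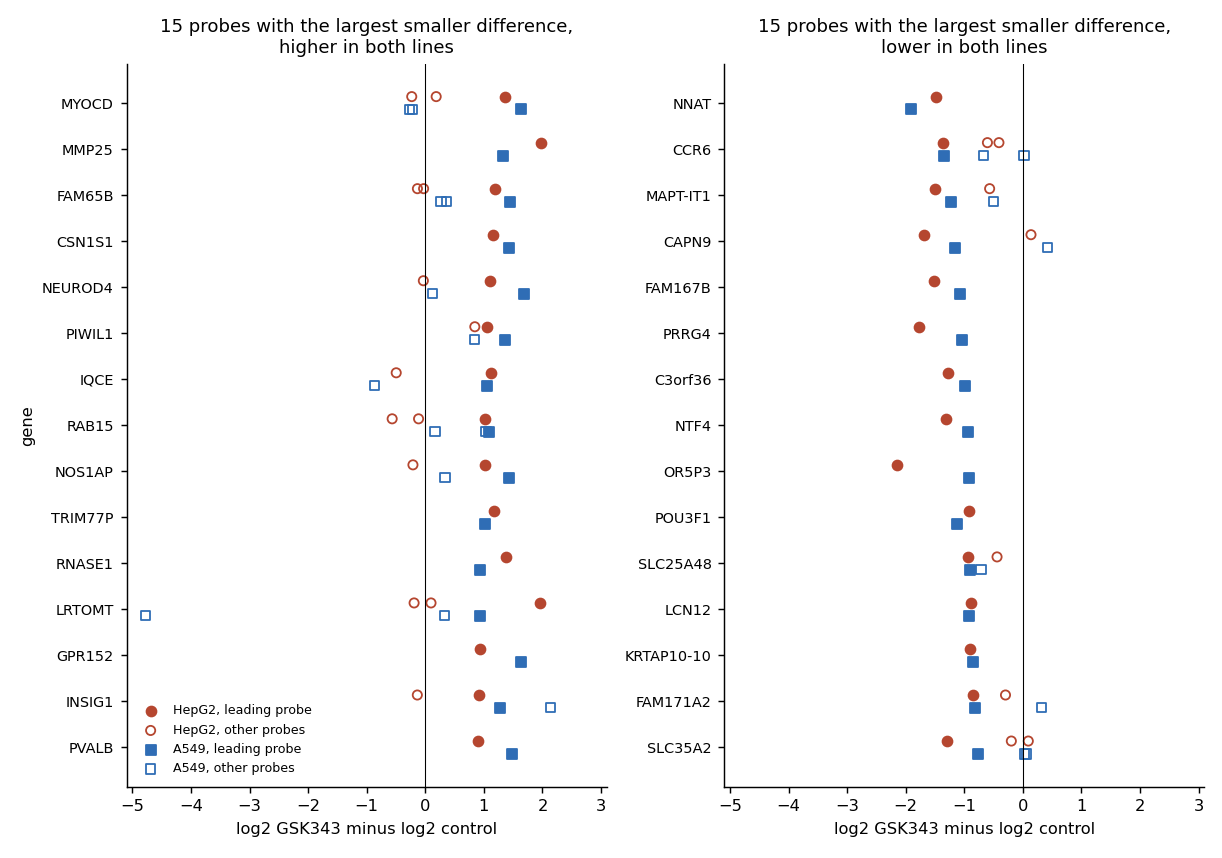
Difference with GSK343 in log2 units (x axis) for the 15 probes higher (left panel) and the 15 lower (right panel) in both lines that rank first by the smaller of the 2 line differences; circles are HepG2 and squares A549, filled symbols are the leading probe and open symbols other single-gene probes of the same gene. Most open symbols lie near 0 or on the other side of it, and those of PIWIL1, MAPT-IT1 and SLC25A48 lie on the side of the filled ones.

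A stricter view asked for agreement between probes as well as between lines. It was added after the values were seen and gets no test. Of 2374 genes with at least 2 brighter single-gene probes, 71 had every brighter probe higher with GSK343 in both lines (2.99%) and 98 had every brighter probe lower (4.13%). At 0.25 log2 units or more, 6 genes were higher with every brighter probe, LPIN1, IDI1, MSMO1, CLCN6, SULT1C2 and GPCPD1, and 2 were lower, SDPR and CCAR1. At 0.5 log2 units LPIN1, IDI1 and MSMO1 were left, all of lipid or sterol synthesis, and no lower gene. CLCN6, a chloride and proton exchanger of late endosomes, had 0.36 log2 units in HepG2 and 0.78 in A549 as the mean of its brighter probes, while a dim one had -0.21 in HepG2 and 0.65 in A549. GPCPD1, which breaks down glycerophosphocholine, had 0.29 log2 units in HepG2 and 0.69 in A549. SULT1C2, a sulfotransferase, had 0.50 in HepG2 and 0.45 in A549.

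SDPR encodes cavin 2, a coat protein of caveolae. Its first probe had an intensity of 2247 with GSK343 and 3390 in the control in HepG2, and of 2298 with GSK343 and 4176 in the control in A549. Its second probe had 1873 with GSK343 and 2468 in the control in HepG2, and 1786 with GSK343 and 2389 in the control in A549. SDPR was thus lower with GSK343 with both probes in both lines, at -0.50 log2 units in HepG2 and -0.64 in A549. CCAR1, a coactivator linked to cell cycle and apoptosis, had -0.33 log2 units in HepG2 and -0.45 in A549. Further down the same ranking, SC5DL, a desaturase of late sterol synthesis, had 0.43 log2 units in HepG2 and 0.33 in A549, and PCYT2, an enzyme of phosphatidylethanolamine synthesis, had 0.26 in HepG2 and 0.29 in A549.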

How the data were processed

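For 31741 probes on 1 array per line and condition, the authors deposited linear Cy5 intensity that had already been processed. The scanner, background correction and normalization are not given in the sources used here, so these steps could not be repeated. Precision was limited by the number of arrays. Gene names came from the platform annotation (24740 probes with 1 gene, 977 with several, 6024 with none). Differences were taken on the log2 scale within each line without further scaling, for probes above 0 on all arrays. limma 3.58.1 in R 4.3.3 was fitted to the 4 arrays (two-sided, prior variance following brightness, line as block) after the script was tested on simulated data. Python 3.11.15, numpy 2.4.6, pandas 2.3.3 and matplotlib 3.10.9 were used. The 2 arrays of a line form the pair of the block.

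The members, 24 gene lists and tests were chosen with earlier results of these data known. Of 752 listed and marker genes, 714 had a single-gene probe and 592 had a brighter one. The others of the 714 entered only where all single-gene probes or the brightest probe are named, and only with a probe above 0 on all arrays. Named genes were the 15 highest and 15 lowest single-gene probes by the smaller line difference, up to 6 genes per list by the same ranking, up to 2 per list with opposite differences of at least 0.5 log2 units, EZH2, SUZ12, EED and EZH1. Genes named beyond that rule, such as HMGCS1, MVK, TRIB3 and MMAB, were chosen after their values were seen. Alternatives were median centring, quantile normalization, an offset of 50, other brightness limits and probe choices, other limma settings and each line alone.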

Additional observations from a re-analysis of the deposited data

Results flagged for a closer look

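For some results, both lines moved by a set size in opposite directions. With 1 pair of arrays per line, none of these differences between the lines was tested. Values are the HepG2 difference minus the A549 difference, in log2 units. Among lists, the median was below 0 in HepG2 and above 0 in A549 for zinc transporters (-0.31) and immediate-early genes (-0.35), and above 0 in HepG2 and below 0 in A549 for cytosolic ribosomal proteins (0.34) and the respiratory chain (0.27). All the single genes, by the mean of their brighter probes, were lower with GSK343 in HepG2 and higher in A549. Survival genes of the BCL2 family were BCL2L1 at -2.39 and MCL1 at -2.06. Stress-responsive genes were GDF15 at -2.08, CDKN1A at -1.82 and PPP1R15A at -1.56. Transcription factors were HOXC6 at -2.38, KLF6 at -1.50, SRF at -1.19 and GATA4 at -1.18. Transporters were SLC2A3 at -1.78, SLC39A14 at -1.69, ABCC2 at -1.36 and SLC3A2 at -1.19. The 2 SLC39A14 probes disagreed, with -1.59 in HepG2 and 2.07 in A549 for one and -0.00 in HepG2 and -0.28 in A549 for the other. The others were ENO2, an enolase, at -1.78, UQCRC1, of respiratory complex III, at -1.65, MT3, a metallothionein, at -1.56, and PSMD4, a proteasome subunit, at -1.44.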

How the results depend on the processing

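Of the values recomputed for counts, shares and list medians, 358 stayed within their limits and 97 did not, and the cause was not tested. With the pairing of arrays within a line dropped from the model (no replicate block), limma passed 0 probes in either direction, as with the block. Counts over probes moved with the brightness limit. With all probes, 31 were higher and 64 lower by 1 log2 unit in both lines and 272 higher and 427 lower by 0.5, and above the 75th percentile these were 3, 1, 25 and 14. No probe reached 1.5 log2 units (0 in either direction). The share with the same direction was 30.8% with centred arrays, 41.2% over all probes and 31.4% above the 75th percentile.

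The median of the cholesterol list was 0.36 with centred arrays, 0.36 after quantile normalization, 0.35 with all single-gene probes and 0.32 with the brightest probe, and 0.44 to 0.46 with a line left out. That of the HOX list was 0.010 with all single-gene probes and 0.022 with the brightest, that of NF-kB targets -0.075 after quantile normalization, -0.0086 with all single-gene probes and -0.043 with the brightest, and that of hypoxia genes -0.026 centred and 0.021 after quantile normalization. With A549 or HepG2 left out, in this order, medians were 0.010 and 0.059 for amino acid genes, 0.011 and -0.061 for p53 targets, -0.051 and -0.10 for mitosis, -0.071 and -0.12 for DNA replication, 1.26 and 0.18 for metallothioneins, -0.19 and -0.041 for YAP and TAZ targets, -0.16 and -0.10 for NF-kB targets, -0.030 and -0.043 for hypoxia genes, 0.026 and 0.20 for the BCL2 family, and 0.0038 and 0.047 for the proteasome.

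Counts of genes with the same direction in both lines moved as follows. With centred arrays, those higher were 3 for amino acid genes, 7 for endoplasmic reticulum chaperones, 4 for NRF2 targets, 1 for p53 targets, 0 for mitosis, 0 for zinc transporters, 0 for YAP and TAZ targets, 1 for NF-kB targets, 7 for autophagy, 3 for hypoxia genes, 3 for interferon-stimulated genes, 7 for ribosomal proteins and 2 for the respiratory chain. Those lower were 2 each for the cholesterol list, the integrated stress response, chaperones, PRC2 and autophagy, and 1 each for p53 targets, ribosomal proteins and the respiratory chain. After quantile normalization, those higher were 0 for replication, zinc transporters and YAP and TAZ targets, 2 for PRC2, and 3 for hypoxia genes and the proteasome, and those lower were 5 for NRF2 targets, mitosis, ribosomal proteins and the proteasome and 2 for PRC2 and the respiratory chain.

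With all single-gene probes, which adds dim genes, those higher were 13 for the HOX list, 3 for zinc transporters, 5 for immediate-early genes, 2 for YAP and TAZ targets and 4 for NF-kB targets, and those lower were 2 for chaperones, 17 for the HOX list, 1 for metallothioneins, 3 for the BCL2 family, 3 for interferon-stimulated genes and 4 for ribosomal proteins. With the brightest probe, those higher were 9 for amino acid genes, 0 for mitosis, 15 for the HOX list, 3 for zinc transporters, 6 for immediate-early genes, 2 for YAP and TAZ targets, 4 for NF-kB targets and 5 for the respiratory chain. Those lower were 2 for chaperones, 1 for p53 targets, 15 for the HOX list, 1 for metallothioneins, 5 for zinc transporters, 3 for the BCL2 family, 3 for interferon-stimulated genes and 6 for the proteasome. One array per condition limits every value, and dim probes most.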
